A study of Homo sapiens with 11 samples.

Results

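The eye field transcription factors examined here are the 8 genes PAX6, LHX2, RAX, SIX3, SIX6, OTX1, OTX2 and VAX2, taken by symbol from the 60605 features of the deposited table. All 8 were listed, and 7 passed the filter for testing (a normalised count of at least 10 in at least 2 libraries); SIX6 did not. The series holds 11 libraries of polyadenylated RNA from ARPE-19 cells, an established line of human retinal pigment epithelium (RPE). Each group was a stable ARPE-19 line taken after 4 days of expression of an open reading frame: GFP, a fluorescent protein and the control (n = 3 libraries), Oct4, Sox2, Klf4, or Oct4, Sox2 and Klf4 together (OSK), with n = 2 libraries for each factor line. The species of the open reading frames and the number of clones behind each line are not given in the sources used here. The library names of all factor lines, but not of GFP, carry the tag mC, whose meaning is not given either. In comparisons with GFP, the factors and whatever mC stands for cannot be told apart. The labels do not say that replicates were separate cultures, so the p-values measure the spread between these libraries, which may be technical.

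The eye field is the part of the anterior neural plate from which both eyes form. Its transcription factors act as a network in which RAX and PAX6 are early determinants, and LHX2 carries the optic vesicle on to the optic cup. The vesicle then divides into neural retina and RPE. SIX3 and SIX6 are known for neural retina. OTX2 and OTX1 work with MITF, the regulator of pigment genes, in the RPE, and OTX2 is used again in photoreceptors. VAX2 marks ventral retina. The question for the 5 lines was whether Sox2 or OSK moved these genes towards neural retina or away from RPE.

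Library depth was 15053300 to 19791775 recovered reads. GFP replicate 1 and OSK replicate 1 stood apart: 42956 and 32493 features had at least 1 read in them, against 25853 to 26971 in the other 9 libraries, and olfactory receptor genes were detected at 67.7% and 23.0% against 4.94% to 8.15%. Calls of members against GFP that changed without these libraries are given both ways. The delivered factor was high in every library labelled for it: POU5F1, the gene of Oct4, was at 66823 to 67326 normalised counts in the Oct4 line and 19020.3 to 19542 in OSK, against 252 to 276 in GFP. SOX2 was at 29106 to 29141 in the Sox2 line and 17582 to 17764 in OSK, against 43.7 to 82.4 in GFP, and KLF4 at 22142 to 24205 in the Klf4 line and 24202 to 24469.8 in OSK, against 45.5 to 124 in GFP.

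Per kilobase of transcript (the median of the principal transcripts in GENCODE 29), GFP libraries held PAX6 at 1106 ± 47.6 normalised counts per kilobase (SD, n = 3), LHX2 at 1046 ± 42.0, SIX3 at 800.4 ± 8.82 and OTX2 at 627 ± 24.7. MITF stood in the same range, at 711 ± 36.7. The SD covers the libraries and not the choice of transcript. Principal transcripts of PAX6 ran from 2.45 to 6.975 kilobases (median 2.62), so its place among these genes depends on the length used. VAX2 was at 28.7 ± 11.6, RAX at 25.7 ± 3.81 and OTX1 at 20.2 ± 3.14. The control line thus carried 4 eye field factors at high levels and 3 at low levels. SIX6 had 6 reads in GFP replicate 1, 1 read in OSK replicate 1 and none in the other 9 libraries, where a count of 0 allows up to 3 reads, or 2.57 to 3.48 normalised counts. These limits cover counting error only.

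**Figure D1:**
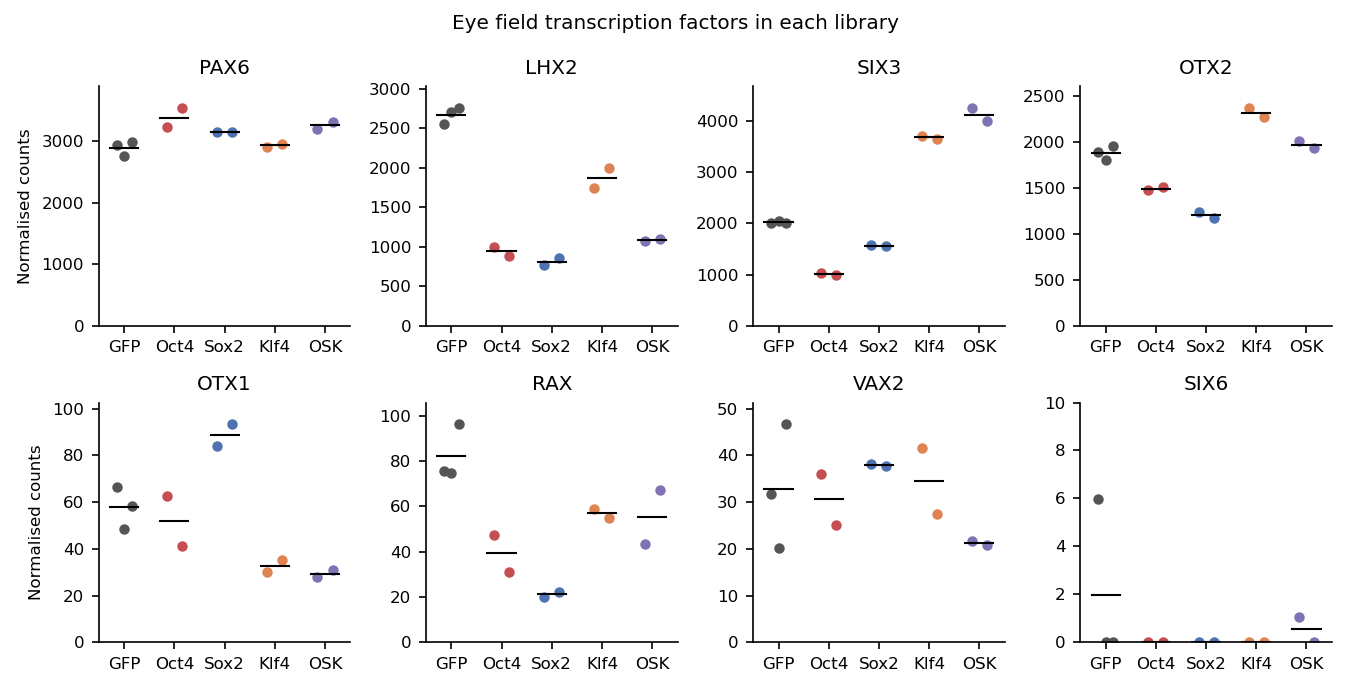
Normalised counts of the 8 eye field transcription factors in each library; points are libraries (n = 3 for GFP, n = 2 for each factor line), bars are group means, and every vertical axis starts at 0. LHX2 is highest in the 3 GFP libraries and lowest in Sox2, SIX3 is highest in Klf4 and OSK, and SIX6 is at 5.96 in 1 GFP library and near 0 elsewhere.

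Sox2 lowered 4 of the 7 tested factors and OSK raised SIX3 while lowering LHX2. Calls are adjusted p-values under 0.05 from limma, fitted over all 18828 tested genes and all 11 libraries, and log2 changes are on the scale of log2(normalised count + 1). Against GFP, 5 of 7 members were called in the Oct4 line (background over all tested genes 37.3%, with 20.1% higher and 17.2% lower): PAX6 was higher and OTX2, LHX2, SIX3 and RAX were lower. In the Sox2 line 4 were called (background 41.6%, with 21.7% higher and 19.9% lower), all lower: OTX2, LHX2, SIX3 and RAX. No member was called higher there by limma or DESeq2, whereas edgeR called 1 (OTX1), which also had an unadjusted limma p-value under 0.05. The Klf4 line had 4 calls (background 33.5%, with 17.6% higher and 16% lower), OTX2 and SIX3 higher and OTX1 and LHX2 lower. OSK also had 4 calls (background 39.7%, with 19.7% higher and 20% lower), PAX6 and SIX3 higher and OTX1 and LHX2 lower. With so few members, these counts describe the list and are not set apart from the background. All 4 comparisons use the same GFP libraries. The median log2 change of the 7 members was -0.33 in Oct4, -0.37 in Sox2, 0.02 in Klf4 and -0.53 in OSK, beside medians of -0.02, -0.02, -0.02 and -0.01 over all tested genes. The OSK median was the value of VAX2, which was not called there (limma adjusted p = 0.274). VAX2 had only 20 and 19 reads in the OSK libraries, so this median does not rank OSK as the line with the largest fall. The Klf4 median was that of PAX6, also not called. The Oct4 and Sox2 medians were those of OTX2 and SIX3, both called lower. In bulk RNA, fewer cells expressing a gene and less RNA per cell cannot be told apart.

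**Figure D2:**
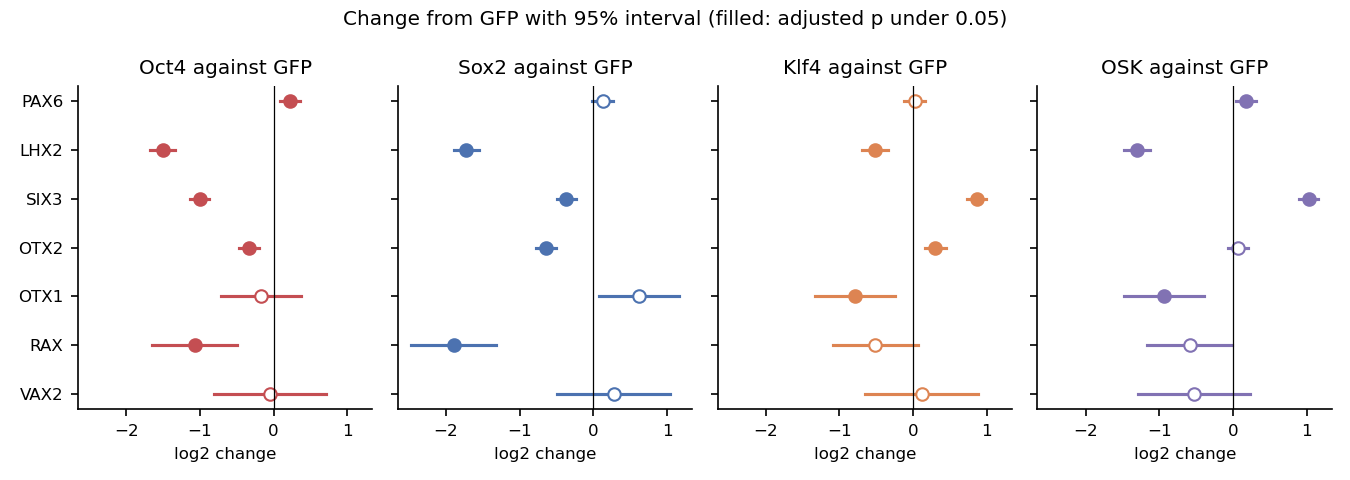
Log2 change from GFP for the 7 tested eye field factors in each factor line, from limma; bars are 95% intervals and filled points have an adjusted p-value under 0.05. LHX2 lies below 0 in all 4 panels, SIX3 lies below 0 in Oct4 and Sox2 and above 0 in Klf4 and OSK, and the intervals of VAX2 include 0 throughout.

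RAX, one of the first factors of the eye field, was at 75.5, 74.9 and 96.2 normalised counts in GFP. It was at 47.6 and 30.9 in Oct4, 20.2 and 22.3 in Sox2, 59.0 and 54.85 in Klf4, and 43.4 and 67.1 in OSK. The Sox2 libraries were the lowest of all 11, and every factor library lay below every GFP library. In Sox2 the log2 change was -1.90 (SE 0.27; limma adjusted p = 3.13e-05), a level 3.87-fold below GFP. The Oct4 change of -1.07 (SE 0.27; limma adjusted p = 0.00538) was not called without Oct4 replicate 2 (-0.77, limma adjusted p = 0.0969). The differences in Klf4 and OSK, -0.51 and -0.59, did not pass (limma adjusted p = 0.166 and 0.0996). Without GFP replicate 1 and OSK replicate 1 the OSK value was -0.34 (limma adjusted p = 0.521). OSK was nonetheless higher than Sox2, by 1.31 (SE 0.30; limma adjusted p = 0.00216). In the order GFP, Klf4, OSK, Oct4, Sox2, the only neighbours that differed were Oct4 and Sox2 (0.83, limma adjusted p = 0.0426). RAX lies at chr18:59267035-59274086 on the minus strand (GRCh38, as are all positions given for genes).

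PAX6, which acts in both neural retina and early RPE, changed least. It was at 2939, 2758 and 2997 normalised counts in GFP, 3232 and 3547 in Oct4, 3156 and 3160.4 in Sox2, 2907 and 2962 in Klf4, and 3209 and 3318 in OSK. The Oct4, Sox2 and OSK libraries all lay above the GFP range, and the Klf4 libraries lay inside it. The Oct4 change was 0.23 (SE 0.06; limma adjusted p = 0.0123), which was not called without Oct4 replicate 2 (0.16, limma adjusted p = 0.164) or when the fit held the 2 compared groups alone (limma adjusted p = 0.0527). The OSK change was 0.17 (SE 0.06; limma adjusted p = 0.0461). It was called in 8 of 21 alternatives and lost in 13, among them edgeR (adjusted p = 0.0558), DESeq2 (adjusted p = 0.0617) and leaving out GFP replicate 1 and OSK replicate 1 (0.21, limma adjusted p = 0.0672). In Sox2 the difference was 0.12, with a 95% interval of -0.01 to 0.26, and in Klf4 it was 0.02, with an interval of -0.12 to 0.16. No neighbours differed in the order Oct4, OSK, Sox2, Klf4, GFP. The gene spans chr11:31784779-31818062 on the minus strand. PAUPAR, an RNA gene whose GENCODE 29 model overlaps the 5′ end of PAX6 on the other strand, was at 30.8, 9.10 and 16.5 normalised counts in GFP, 20.9 and 33.2 in Oct4, 12.3 and 8.56 in Sox2, 46.3 and 45.7 in Klf4, and 39.02 and 45.1 in OSK. It was higher in Klf4 (1.40, SE 0.43; limma adjusted p = 0.0207) and OSK (1.27, SE 0.43; limma adjusted p = 0.0289), and these calls were lost in 5 and 8 of 21 alternatives, each without GFP replicate 2 (0.99 and 0.86, limma adjusted p = 0.0799 and 0.115). ELP4, whose model overlaps the 3′ end of PAX6 on the other strand, showed no call against GFP (log2 differences 0.04 to 0.24).

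LHX2, a LIM homeobox factor that the optic vesicle needs to become an optic cup, fell in every factor line. GFP libraries had 2552, 2702 and 2759.7 normalised counts. The values were 995 and 889 in Oct4, 765 and 855 in Sox2, 1739.6 and 1998 in Klf4, and 1071 and 1097 in OSK. No factor library overlapped GFP, and Klf4 was nearest to it. The fall was 3.30-fold in Sox2 (log2 change -1.72, SE 0.08; limma adjusted p = 1.21e-10), 2.84-fold in Oct4 (-1.50, SE 0.08; limma adjusted p = 8.43e-10) and 2.46-fold in OSK (-1.30, SE 0.08; limma adjusted p = 3.98e-09). It was 1.43-fold in Klf4 (-0.52, SE 0.08; limma adjusted p = 0.000117). OSK was higher than Sox2 by 0.42 (SE 0.09; limma adjusted p = 0.0012) and lower than Klf4 by a log2 change of -0.78 (SE 0.09; limma adjusted p = 8.01e-06). OSK and Oct4 did not pass (0.20, 95% interval 0.01 to 0.39, limma adjusted p = 0.0815), nor did Oct4 and Sox2 (0.22, 95% interval 0.03 to 0.41, limma adjusted p = 0.0723).

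The RNA gene LHX2-AS1, on the opposite strand beside LHX2, moved in 1 line. It had 202 and 172 normalised counts in the Oct4 libraries, and 6.95, 1.01 and 2.92 in GFP. The other 6 libraries held 0 to 4.63. Reads of LHX2-AS1 equalled 20.3% and 19.3% of the LHX2 reads in the Oct4 libraries, against at most 0.587% in any other library. The Oct4 change was 5.56 (SE 0.76; limma adjusted p = 2.75e-05). Without GFP replicate 1, which held 7 of the 11 GFP reads, both remaining GFP libraries were at or under 3 reads and Oct4 was at least 62.8-fold higher, with the floor taken as 3 reads per library. The table lists LHX2-AS1 by its Ensembl identifier, and its start in RefSeq lies 2372 bases from that of LHX2, inside the LHX2 span of GENCODE 29 (chr9:124001670-124033301, plus strand). Whether the authors' counting used strand is not given in the sources used here, so reads from the pair cannot be told apart where they overlap. The start windows of both genes (250 bases before and 50 after the start, from RefSeq on GRCh38.p14) are shown because this pair moved in opposite directions in the Oct4 line. They are chr9:124011518-124011817 on the plus strand for LHX2 and chr9:124009347-124009646 on the minus strand for LHX2-AS1, printed 5′ to 3′ in lower case.
LHX2: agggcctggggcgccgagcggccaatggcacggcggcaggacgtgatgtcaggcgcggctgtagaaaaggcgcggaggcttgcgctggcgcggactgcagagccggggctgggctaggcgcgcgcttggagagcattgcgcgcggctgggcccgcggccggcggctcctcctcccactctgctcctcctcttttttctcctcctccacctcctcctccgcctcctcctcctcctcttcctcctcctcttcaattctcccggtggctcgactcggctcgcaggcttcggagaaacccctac
LHX2-AS1: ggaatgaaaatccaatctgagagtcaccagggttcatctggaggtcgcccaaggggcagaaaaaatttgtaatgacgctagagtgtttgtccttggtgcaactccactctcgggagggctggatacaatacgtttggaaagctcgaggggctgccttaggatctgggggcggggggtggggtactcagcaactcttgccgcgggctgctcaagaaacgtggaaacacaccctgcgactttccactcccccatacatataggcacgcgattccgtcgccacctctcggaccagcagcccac
Neither window holds the octamer ATGCAAAT on either strand, a sequence that Oct4 binds, which 1.77% of 35116 such windows hold. That says only that these letters are not in the window.

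SIX3, which promotes neural retina and restrains Wnt signalling, was the member whose direction split the lines. It was at 2011, 2045 and 2002 normalised counts in GFP. It was at 1031 and 983 in Oct4, 1582 and 1547 in Sox2, 3706 and 3645 in Klf4, and 4247 and 3983 in OSK. No 2 groups overlapped. SIX3 fell 2.00-fold in Oct4 (log2 change -1.003, SE 0.06; limma adjusted p = 3.51e-09) and 1.29-fold in Sox2 (-0.37, SE 0.06; limma adjusted p = 0.000144). It rose in Klf4 by 0.86 (SE 0.06; limma adjusted p = 2.65e-08) and in OSK by 1.03 (SE 0.06; limma adjusted p = 2.48e-09). OSK stood above Oct4 by 2.03 (SE 0.07; limma adjusted p = 5.45e-12) and above Sox2 by 1.39 (SE 0.07; limma adjusted p = 2.02e-10). OSK and Klf4 did not pass (0.16, 95% interval 0.02 to 0.31, limma adjusted p = 0.105), and all other neighbours in the order OSK, Klf4, GFP, Sox2, Oct4 differed. SIX3 lies at chr2:44941898-44946077 on the plus strand.

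SIX3-AS1, the RNA gene read in the opposite direction beside SIX3, rose further than SIX3 did. It had 44.7, 26.3 and 33.05 normalised counts in GFP, 33.7 and 44.6 in Oct4, 95.4 and 77.9 in Sox2, 199 and 206 in Klf4, and 349 and 339 in OSK. Oct4 lay inside the GFP range and the other lines above it. The change was 1.32 in Sox2 (SE 0.22; limma adjusted p = 0.000138), 2.54 in Klf4 (SE 0.22; limma adjusted p = 2.41e-07) and 3.31 in OSK (SE 0.22; limma adjusted p = 7.91e-09), the last a 9.92-fold rise. In the Sox2 line the gene therefore rose while SIX3 fell. Its reads equalled 1.29% to 2.22% of the SIX3 reads in GFP, 3.27% and 4.54% in Oct4, 6.03% and 5.04% in Sox2, 5.37% and 5.64% in Klf4, and 8.22% and 8.51% in OSK. The RefSeq models of SIX3 and SIX3-AS1 overlap by 177 bases, where reads cannot be assigned without strand.

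SIX6, the close relative of SIX3 in neural retina, stayed near 0 as given above: no factor library held more than 1 read, and no fold change is given. C14orf39, whose GENCODE 29 model spans SIX6 on the opposite strand, was not tested and had at most 0.99 normalised counts in any library. The gene lies at chr14:60508951-60512850 on the plus strand.

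OTX2, an RPE and photoreceptor factor, fell in the 2 lines in which SIX3 also fell. Its normalised counts were 1887, 1804 and 1952 in GFP, 1480.5 and 1507 in Oct4, 1241 and 1175 in Sox2, 2372 and 2267 in Klf4, and 2007 and 1933 in OSK. Sox2 was lowest and Klf4 highest, and only OSK overlapped GFP. The change was -0.64 in Sox2 (SE 0.06; limma adjusted p = 8.28e-07), a 1.56-fold fall, and -0.33 in Oct4 (SE 0.06; limma adjusted p = 0.000768). It was 0.30 in Klf4 (SE 0.06; limma adjusted p = 0.00182). OSK did not differ detectably from GFP (0.07, 95% interval -0.07 to 0.21, limma adjusted p = 0.459) and was higher than Sox2 by 0.71 (SE 0.07; limma adjusted p = 8.19e-07). OSK lay below Klf4 by a log2 change of -0.24 (limma adjusted p = 0.0261), and that call was lost when any one of the 4 libraries compared was left out (limma adjusted p = 0.0528 to 0.169). OTX2 lies at chr14:56799905-56810479 on the minus strand.

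OTX2-AS1, an RNA gene beside OTX2 on the other strand, had 32.8, 30.35 and 43.7 normalised counts in GFP, 11.6 and 6.87 in Oct4, 19.1 and 22.3 in Sox2, 32.4 and 37.7 in Klf4, and 9.76 and 9.90 in OSK. It fell in Oct4 (-1.86, SE 0.37; limma adjusted p = 0.000849) and in OSK (-1.74, SE 0.37; limma adjusted p = 0.00127). OTX2 itself was near its GFP level in OSK. The Sox2 difference of -0.74 did not pass (limma adjusted p = 0.124).

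**Figure D3:**
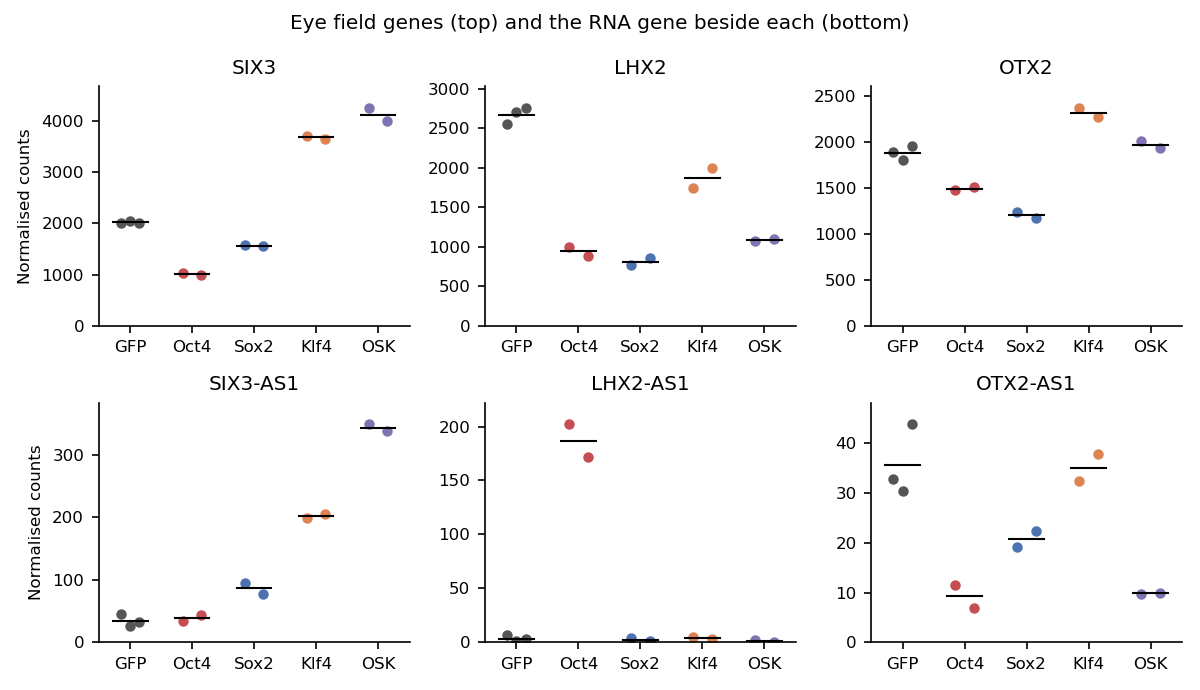
Normalised counts per library of SIX3, LHX2 and OTX2 (top) and of the RNA gene beside each (bottom); points are libraries, bars are group means, and axes start at 0. LHX2-AS1 is high only in the 2 Oct4 libraries (172 and 202), SIX3-AS1 is highest in OSK (339 and 349), and OTX2-AS1 is at 6.87 to 11.6 in Oct4 and OSK.

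OTX1, the relative of OTX2 in early RPE, was low throughout. It was at 66.5, 48.6 and 58.3 normalised counts in GFP, 62.7 and 41.2 in Oct4, 84.15 and 93.3 in Sox2, 30.1 and 35.4 in Klf4, and 28.2 and 30.8 in OSK. Sox2 lay above every other library, and Klf4 and OSK lay below every other library. OSK was lower than Sox2 by a log2 change of -1.56 (SE 0.28; limma adjusted p = 0.000302), a 3.01-fold difference. Against GFP the change was -0.94 in OSK (SE 0.25; limma adjusted p = 0.0078), which was not called without OSK replicate 1 (-0.88, limma adjusted p = 0.0586) or without both GFP replicate 1 and OSK replicate 1 (-0.77, limma adjusted p = 0.114). The Klf4 change of -0.79 (SE 0.25; limma adjusted p = 0.0247) was not called in 8 of 21 alternatives, among them without GFP replicate 1 (-0.69, limma adjusted p = 0.0677), without Klf4 replicate 1 (-0.68, limma adjusted p = 0.152) and with DESeq2 (adjusted p = 0.0856). In Sox2 the value of 0.62 did not pass (limma adjusted p = 0.064), and it passed with edgeR (0.64, adjusted p = 0.0366) and without GFP replicate 1 (0.73, limma adjusted p = 0.0467). OTX1 lies at chr2:63050057-63057836 on the plus strand.

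VAX2, a factor of ventral retina, showed no call in any comparison. Its normalised counts were 31.8, 20.2 and 46.7 in GFP, 36.0 and 25.2 in Oct4, 38.15 and 37.7 in Sox2, 41.6 and 27.4 in Klf4, and 21.7 and 20.9 in OSK. The groups overlapped GFP in all 4 lines. These rest on 19 to 48 reads per library, and the 95% interval of the OSK difference from GFP ran from -1.29 to 0.24. The gene spans chr2:70900590-70965373 on the plus strand.

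The factor lines were also compared with each other. Against Sox2, 5 of 7 members were called (background 40.5%, with 20% higher and 20.5% lower): OTX2, LHX2, SIX3 and RAX were higher in OSK and OTX1 was lower. Against Oct4, 3 were called (background 40.3%, with 18.4% higher and 21.9% lower), OTX2 and SIX3 higher and OTX1 lower, the OTX1 call being lost in 11 of 21 alternatives (-0.77; for example DESeq2 adjusted p = 0.121). Against Klf4, 2 were called (background 21.5%, with 9.56% higher and 11.9% lower), OTX2 and LHX2, both lower. No member was called higher in OSK than in Klf4 by limma, edgeR or DESeq2, while 2 (PAX6 and SIX3) had an unadjusted limma p-value under 0.05. The comparisons of Sox2 with GFP and of OSK with Sox2 share the Sox2 libraries. Between the single factors, Oct4 against Sox2 gave 4 calls (background 33.4%, with 18% higher and 15.4% lower), OTX2 and RAX higher in Oct4 and OTX1 and SIX3 lower. The RAX and OTX1 calls were lost in 13 and 8 of 21 alternatives. Oct4 against Klf4 gave 4 (background 41.7%, with 21.8% higher and 20% lower), PAX6 higher in Oct4 and OTX2, LHX2 and SIX3 lower. The PAX6 call was lost in 6 of 21 alternatives. Sox2 against Klf4 gave 5 (background 40.8%, with 20.1% higher and 20.7% lower), OTX1 higher in Sox2 and OTX2, LHX2, SIX3 and RAX lower.

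The start windows available from RefSeq were searched on both strands for CCACACCC, a sequence bound by Klf4, and for ACAAAG and ACAATG, sequences bound by SOX factors. No window was used for SIX3 or VAX2. CCACACCC occurred in 3.28% of 35116 windows and, in this group, in those of OTX1, which was lower in the Klf4 and OSK lines, and SIX3-AS1, which was higher in both. The OTX1 window (chr2:63050580-63050879, plus strand) is printed whole, and a 30-base stretch is printed for SIX3-AS1 (chr2:44941916-44941945, minus strand). Both are 5′ to 3′ with the motif or its reverse complement in capitals.
OTX1: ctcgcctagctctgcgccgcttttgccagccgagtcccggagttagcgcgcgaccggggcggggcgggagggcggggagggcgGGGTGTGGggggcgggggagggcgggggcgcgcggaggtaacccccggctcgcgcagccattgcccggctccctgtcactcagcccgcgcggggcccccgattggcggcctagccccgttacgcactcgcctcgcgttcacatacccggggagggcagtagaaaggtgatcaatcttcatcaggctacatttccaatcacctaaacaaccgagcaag
SIX3-AS1: gtaagggacacCCACACCCcacacacatcc
The motif starts 56 bases before the SIX3-AS1 start and 167 bases before the OTX1 start. ACAAAG occurred in 16.1% of all windows and in windows of PAX6 and OTX2-AS1, and ACAATG in 10.8% and in a window of PAX6. PAX6 had 9 windows and OTX2 and OTX2-AS1 had 2 each, against 1 for the other genes searched. These shares are per window, so a gene with more windows is likelier to hold a match. A match describes letters in a window and is neither a site nor a cause.

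MITF, the pigment cell regulator that OTX2 works with, fell in all 4 lines. It was at 3263, 3354 and 3602.5 normalised counts in GFP, 1786 and 1999.5 in Oct4, 789.9 and 747.5 in Sox2, 2343 and 2515 in Klf4, and 1590.3 and 1732 in OSK. No factor library overlapped GFP, and Sox2 was the lowest group. The change was -2.15 in Sox2 (SE 0.07; limma adjusted p = 4.72e-12), a 4.43-fold fall, and -1.04 in OSK (SE 0.07; limma adjusted p = 2.02e-08), a 2.05-fold fall. It was -0.85 in Oct4 (limma adjusted p = 2.18e-07) and -0.49 in Klf4 (limma adjusted p = 9.76e-05). OSK was higher than Sox2 by 1.11 (SE 0.08; limma adjusted p = 2.32e-08).

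Of 40 listed RPE genes, 30 were tested. In Sox2, 14 (46.7%) fell and 6 (20%) rose, against 19.9% and 21.7% of all tested genes, with a median log2 change of -1.19 beside -0.02. In OSK, 16 (53.3%) fell and 5 (16.7%) rose, against 20% and 19.7%, with a median of -0.69 beside -0.01. Oct4 had 18 falls (60%) and 7 rises (23.3%), against 17.2% and 20.1% of all tested genes (median -0.82). Without GFP replicate 1 and OSK replicate 1 the Oct4 falls and rises numbered 17 and 5. Klf4 had 9 falls (30%) and 5 rises (16.7%), against 16% and 17.6% (median -0.26). The rises in Sox2, OSK and Klf4 were thus at or below the background. The Sox2 rises numbered 2 with no filter or without Sox2 replicate 2, and 3 without any one of GFP replicate 2, Sox2 replicate 1 or an Oct4 or OSK library. The Klf4 falls numbered 5 without Klf4 replicate 2. Without GFP replicate 1 and OSK replicate 1 the falls and rises were 15 and 4 in Sox2 and 15 and 4 in OSK. Between the lines, 17 of the 30 (56.7%) were higher in OSK than in Sox2 and 6 (20%) were lower, against 20% and 20.5% of all tested genes (median 1.03 beside 0.03).

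The pigment enzymes were among the largest falls. TYR, tyrosinase, was at 349.55, 512.9 and 578 normalised counts in GFP, 29.03 and 60.7 in Oct4, 8.98 and 19.7 in Sox2, 403 and 217 in Klf4, and 108 and 64.9 in OSK. Sox2 was lowest and only Klf4 overlapped GFP. TYR had a log2 change of -5.03 in Sox2 (SE 0.36; limma adjusted p = 1.73e-08) and -2.47 in OSK (SE 0.36; limma adjusted p = 4.83e-05), and OSK was above Sox2 by 2.56 (limma adjusted p = 8.13e-05). TYRP1, a melanin enzyme, and PMEL, the melanosome fibre protein, fell too, with log2 changes of -4.21 and -5.23 in Sox2 and -1.61 and -2.65 in OSK. TRPM1, a channel of pigment and bipolar cells, was at 2.57 and 3.37 in Sox2, at or under 3 reads, and at least 250.3-fold below GFP at the floor of 3 reads per library. RDH5, a retinol dehydrogenase, rose by 1.24 in OSK and 2.60 in Klf4.

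Markers of mature RPE differed in level in this line. BEST1, a chloride channel of RPE, was at 87.4 to 136 normalised counts in GFP and fell in OSK (-1.26, limma adjusted p = 0.000261), while its Sox2 difference of -0.24 did not pass (limma adjusted p = 0.416). The low level was not particular to OSK: BEST1 was at 46.45 and 43.5 in Oct4, beside 40.1 and 48.4 in OSK. RPE65, the visual cycle isomerase, had at most 4 reads in any library and was not tested, and TTR was likewise not tested. In GFP, LRAT was at 49.65 to 65.1 normalised counts and RLBP1 at 16.2 to 24.3. The pigment genes DCT, OCA2 and SLC24A5 were not tested. They were at 0 to 2.92 in GFP replicates 2 and 3, and at up to 21.85 in GFP replicate 1. The labelled cell type thus carried MITF and a part of the listed pigment genes, with RPE65 near 0.

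On the neural retina side, 13 of 40 listed genes were tested. In Sox2, 2 rose (15.4%) and 3 fell (23.1%), against 21.7% and 19.9% of all tested genes, and without Sox2 replicate 1 the falls numbered 1. In OSK, 3 rose (23.1%) and 1 fell (7.69%), against 19.7% and 20%. These shares lie near or below the background, and the medians were -0.16 in Sox2 and -0.19 in OSK. Without GFP replicate 1 and OSK replicate 1 the Sox2 falls numbered 2. MAP2, a microtubule protein of neurons, was at 2468, 2007 and 2153 normalised counts in GFP, 5049 and 4964 in Sox2, and 7558 and 8235 in OSK. Both lines lay above all GFP libraries, with changes of 1.19 (SE 0.09; limma adjusted p = 4.21e-08) and 1.84 (SE 0.09; limma adjusted p = 4.09e-10). GLUL, the glutamine synthetase of Müller glia and of many other cells, rose in OSK by 1.12 (limma adjusted p = 6.36e-09) and in Klf4 by 0.52 (limma adjusted p = 3.87e-05). The third gene raised in OSK, CALB1, a calcium-binding protein of horizontal cells, changed by 1.65 (limma adjusted p = 0.0234) and was not called in 5 of 21 alternatives (without OSK replicate 2, 1.19 and limma adjusted p = 0.247). TUBB3, the neuronal beta tubulin, fell in all 4 lines, with log2 changes of -2.40 in Sox2 and -2.48 in OSK.

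The 27 neural retina genes that were not tested, among them ATOH7, NEUROD1 and POU4F2, summed to 15 to 38 reads in each of the 9 libraries other than GFP replicate 1 and OSK replicate 1. They summed to 357 reads in GFP replicate 1 and 67 in OSK replicate 1. CRX, the photoreceptor factor, was counted on the RPE list and not among these genes. Its level was 43.7 normalised counts in GFP replicate 1, 7.59 in OSK replicate 1, 1.01 in GFP replicate 2 and 0 in the rest. RAX2, a relative of RAX that was also not on the neural retina list, was at 12.9 and 8.67 in GFP replicate 1 and OSK replicate 1 and 0 elsewhere. Apart from 1 read of CRX in GFP replicate 2, the reads of CRX and RAX2 thus stood in the 2 libraries with the most features detected, and no Sox2 library held any. The part of those libraries' background in these values was not tested.

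**Figure D4:**
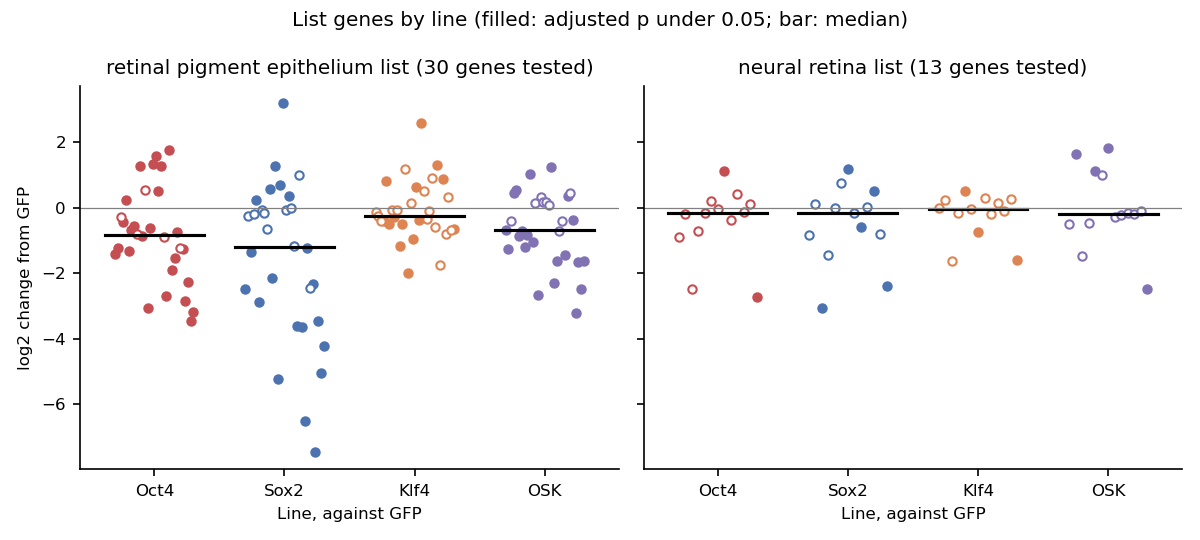
Log2 change from GFP of each tested gene of the RPE list (30 genes, left) and the neural retina list (13 genes, right) in each factor line, in alphabetical order within a line; filled points have a limma adjusted p-value under 0.05 and bars are medians. The RPE medians are -0.82, -1.19, -0.26 and -0.69 in Oct4, Sox2, Klf4 and OSK, and the neural retina medians lie between -0.19 and -0.03.

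Of 34 other optic vesicle regulators, 22 were tested. In Sox2, 5 rose (22.7%) and 7 fell (31.8%), against 21.7% and 19.9% of all tested genes. In OSK, 3 rose (13.6%) and 7 fell (31.8%), against 19.7% and 20%. SIX2, a relative of SIX3, was at 9.93, 5.06 and 3.89 normalised counts in GFP, 7.85 and 5.99 in Sox2, and 72.6 and 92.4 in OSK, a change of 3.59 in OSK (SE 0.55; limma adjusted p = 7.29e-05). Both OSK libraries lay above all the others. SIX4, another relative, rose in Sox2 by 1.72 (SE 0.18; limma adjusted p = 1.42e-06), with 282 and 284 against 77.5 to 92.35 in GFP. BMP4, a signal of dorsal retina and RPE, fell in Sox2 (-1.39) and OSK (-0.64), as did MEIS2, a homeobox factor of eye development (-1.42 and -0.57). MEIS1, of the same family, went the other way, rising by 0.88 in Sox2 (limma adjusted p = 2.66e-05) and 0.57 in OSK (limma adjusted p = 0.00143). MAB21L2, a gene of early eye growth, rose in Oct4 (2.65, SE 0.64; limma adjusted p = 0.00379). It was not called without Oct4 replicate 1 (2.36, limma adjusted p = 0.0605).

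Lists of other cell types were measured beside these. Of 20 fibroblast and mesenchymal genes, 15 were tested, and the sum over the list was 31369 to 41692 normalised counts in GFP, 98666 to 107328 in Oct4, 81029.8 to 94332.5 in Sox2, 21902 to 23672 in Klf4 and 17964.5 to 19809 in OSK. FN1, the matrix protein fibronectin, made up 62.3% to 64.2% of the sum in Oct4 and 44.1% to 50.6% in Sox2, against 17% to 18.5% in GFP. Without FN1 the sum was 25756 to 33976 in GFP, 37232 to 38416 in Oct4 and 45312 to 46576 in Sox2. In Oct4 6 of the 15 rose (40%) and 2 fell (13.3%), against 20.1% and 17.2% of all tested genes, with a median log2 change of 0.13. In Sox2 8 rose (53.3%) and 3 fell (20%), against 21.7% and 19.9% (median 0.82). In both Klf4 and OSK 1 rose (6.67%) and 9 fell (60%), against 17.6% and 16% in Klf4 and 19.7% and 20% in OSK (medians -0.66 and -0.59). Of 20 neural progenitor genes 7 were tested, of which 2 rose in Sox2 (28.6%, against 21.7% of all tested genes) and 3 fell in OSK (42.9%, against 20%), with median log2 changes of -0.41 and -0.64. In Klf4 4 fell (57.1%, against 16%), with a median of -1.23, and in Oct4 1 rose (14.3%, against 20.1%). The sum over the 20 was 5663 to 6795 in GFP, 10879 to 11316 in Sox2 and 2812 to 3224 in OSK, of which CDH2 made up 89.9% to 97.3% in these 3 lines. CDH2, a cadherin that is also widely expressed outside neural cells, rose by 0.89 in Sox2 and fell by 1.04 in OSK on the log2 scale. It was at 2652 and 3001 normalised counts in Klf4, beside 2610 and 3063 in OSK. NES, an intermediate filament of neural progenitors, was not called in any line (log2 differences from GFP of -0.64 to 0.21). In the lens and cornea list (7 of 20 tested) Sox2 had 2 rises (28.6%) and 3 falls (42.9%), and in the pluripotency list (11 of 20 tested) it had 1 rise, LEFTY2 (9.09%), and 6 falls (54.5%), against 21.7% and 19.9% of all tested genes. OSK had no rises in these lists, with 3 falls (42.9%) in lens and cornea and 5 (45.5%) in pluripotency, against 20%. In lens and cornea, Klf4 had 2 rises (28.6%, against 17.6%) and 4 falls (57.1%, against 16%), and Oct4 had 2 falls (28.6%, against 17.2%). In pluripotency, Klf4 had no calls and Oct4 had 1 fall (9.09%). Whether these lists had a part in the changes of the eye field genes was not tested.

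The genes whose levels most resembled each member were named by Pearson correlation of log2(normalised count + 1) over the 11 libraries, among 12177 genes with a mean of at least 50. The points share 5 groups, so r describes the order of the groups. For SIX3 these were AKAP1 (r = 0.992), B4GAT1 (0.989) and EEF2K (0.989), with ADM lowest (-0.988). For LHX2 they were ABR (0.991), SMAD6 (0.989) and SNHG7 (0.985), with CRYZL1 lowest (-0.981), and for OTX2 RNF13 (0.991), SLC9A3R1 (0.984) and NEBL (0.984), with TPST1 lowest (-0.993). RAX was most like FGF2 (0.958), EEF1D (0.955) and PFKFB2 (0.951), with BTBD9 lowest (-0.971). OTX1 was most like PHKA2, EPB41L3 and PTRHD1 (0.960 to 0.965), and PAX6 most like RBPJ, UEVLD and BDP1 (0.937 to 0.954). Among members, LHX2 and RAX had r = 0.857 and OTX2 and OTX1 had r = -0.790. LHX2 and SIX3 had r = 0.306: Klf4 and OSK lay above GFP in SIX3 and below it in LHX2.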

How the data were processed

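PolyA RNA of ARPE-19 cells was extracted with TRIzol, enriched with oligo(dT) and made into NEBNext Ultra II libraries, per the labels' protocols. STAR 2.7.1a, featureCounts 1.6.2 and builds GRCh38/hg38 and GRCm38/mm10 are named in the submitters' processing notes, with no role stated; the annotation and use of strand are not given in the sources used here. The authors deposited a signal per gene, read here as normalised counts (read counts over 1 factor per library), judging by the steps between low values. Whole reads were recovered (100% of values up to 200, at least 99.96% of all, within 0.0061). Replicates differed by more than sampling noise (mean chi-square per feature 3.32 to 13.2). A name table gave symbols to 1481 of the 20014 features that carry an Ensembl ID.

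As normalised counts call for, genes were tested with limma 3.58.1 (R 4.3.3; trend, two-sided, Benjamini-Hochberg) on log2(value + 1), which understates changes of low genes, with a mean per group over 11 libraries for genes reaching 10 in 2 or more libraries. edgeR 4.0.16 and DESeq2 1.42.0 on recovered reads were alternatives, with TMM rescaling, pseudocounts of 0.5 and 5, other filters, only the compared groups, the replicate block and left-out libraries. The procedure was tested on simulated data.

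The members and lists were chosen with earlier results of these data known. Named genes are the members, the RNA genes beside them, a short set of fixed markers, at most 2 rises and 2 falls per list and line (the largest with libraries that do not overlap), and the 3 most similar genes and the least similar one per member. RAX2, TTR, FN1, LRAT, RLBP1, DCT, OCA2, SLC24A5 and the untested neural retina genes were named after their values were seen. Gene positions are from GENCODE 29 and start windows from RefSeq GRCh38.p14.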

Additional observations from a re-analysis of the deposited data

How the results depend on the processing

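The 70 member comparisons were refitted under 21 alternatives. Of 1470 values, 1382 kept their direction and side of the threshold, 14 changed sign with no call under either setting, 69 lost the call and 5 gained one, and no called value changed sign. For the other named genes 8388 of 8904 kept both, 144 changed sign with no call, 276 lost the call and 90 gained one, again with no called value changing sign, and 6 had no adjusted p-value from DESeq2. The calls for SIX3 and LHX2 against GFP, for OTX2 in Oct4, Sox2 and Klf4, and for RAX in Sox2 held under all 21. The number of eye field genes changed in Oct4 against GFP fell from 5 to 3 without Oct4 replicate 2. In OSK against GFP it fell from 4 to 2 without GFP replicate 1 and OSK replicate 1, and in OSK against Klf4 from 2 to 1 with no filter. Leaving out 1 library at a time, the counts against GFP ran from 3 to 5 in Oct4, 4 to 5 in Sox2, 3 to 4 in Klf4 and 2 to 4 in OSK. They ran from 2 to 3 for OSK against Oct4, 5 to 5 against Sox2 and 1 to 2 against Klf4. Where an arm kept 1 library, it was assumed to vary like the other groups. Apart from fewer libraries or more genes tested, the causes were not tested.

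The replicate numbers do not pair the libraries in general: deviations of same-numbered libraries correlated from -0.07 to 0.37, above 0.1 in 1 of 10 pairs of groups. That pair was GFP and OSK, whose replicate 1 libraries stood apart in features detected. The source of their shared deviations was not tested. With the replicate block, 5, 4, 3 and 3 members were called against GFP in Oct4, Sox2, Klf4 and OSK, and 2, 5 and 2 in OSK against Oct4, Sox2 and Klf4. Depth limits VAX2, RAX and OTX1, which rest on 18 to 109 reads per library, and SIX6, which had at most 6.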
